A study of Mus musculus with 12 samples.

Results

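Methylation was examined at 10 genes that act early in the B lymphocyte pathway or at the branch points around it: the transcription factor genes Tcf3, Ebf1, Foxo1, Satb1 and Spib, the receptor genes Flt3 and Notch1, the adaptor gene Blnk, and the antigen receptor assembly genes Rag1 and Dntt. Regions were taken where the authors' list of hypomethylated regions named one of these genes at a distance of at most 5 kb, together with every tabulated region between the first and the last such region of a gene. This gave 41 regions of the 107115 candidate regions in the deposited table, at 6 of the 10 genes: 20 at Notch1, 11 at Tcf3, 7 at Ebf1 and 1 each at Flt3, Blnk and Dntt. Of the 41, 15 were in the hypomethylated list and 26 lay between listed regions. Foxo1, Satb1, Spib and Rag1 had no listed region under their names within that distance, and the candidate regions at these 4 genes are described separately.

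The samples were lineage-negative bone marrow progenitors of BALB/c mice, that is, marrow cells depleted of those with markers of mature blood lineages. The mutant mice carried a missense mutation in Dnmt1, modelled on fish alleles that impair lymphoid development, per the series' design text; the labels write the genotype as dnmt1-/-, and the controls were wild type. Each genotype had 3 replicate columns of methylation levels, to which the labels assign 6 libraries prepared by bisulfite treatment (3) or by enzymatic conversion (3). The sources used here give no ages, sexes or pooling of animals, nor do they state that replicates were separate animals, so p-values measure the spread between these samples, which may be technical. Levels are percentages of methylated CpGs in a region without read counts, so the depth behind them is unknown. The files hold no expression values, so the labelled cell type could not be checked against marker transcripts.

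Dnmt1 restores methylation on the newly made DNA strand after replication. B lymphocyte development is set in motion by the E protein encoded by Tcf3, which acts with Foxo1 to switch on Ebf1, and Ebf1 in turn acts with Pax5 to fix B cell identity. Flt3 signalling maintains the lymphoid progenitors from which this starts, whereas Notch1 signalling directs them to the T cell fate. Rag1 cuts the antigen receptor genes, Dntt adds untemplated nucleotides at the joins, and Blnk couples the assembled receptor to its downstream enzymes.

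Promoter sequence is shown for 3 of the genes because no candidate region reached the promoter window of any of the 10. RefSeq promoters (GRCm38.p6, the assembly that mm10 names, from C57BL/6J and not BALB/c) matched 10 of 10 genes in 15 windows, each running from 250 bases before a gene start to 50 after it. Of these 15 windows, 0 overlapped a candidate region, against 11.4% of the 32851 windows in the table. Candidate regions came nearest at Spib, 207 bp from the window, and at Notch1, 388 bp from it. Rag1 is shown beside these because its nearest region was 5035 bp away and, unlike theirs, was not called lower. The sequences read 5′ to 3′ on the minus strand, and capitals mark each CG, the dinucleotide that is methylated.
Notch1 (chr2:26503773-26504072): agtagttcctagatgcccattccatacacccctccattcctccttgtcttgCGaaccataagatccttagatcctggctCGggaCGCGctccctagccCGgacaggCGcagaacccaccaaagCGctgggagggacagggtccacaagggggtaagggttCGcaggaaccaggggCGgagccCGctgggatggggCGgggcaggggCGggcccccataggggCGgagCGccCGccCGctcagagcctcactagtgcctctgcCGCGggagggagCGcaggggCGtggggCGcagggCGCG
Spib (chr7:44532022-44532321): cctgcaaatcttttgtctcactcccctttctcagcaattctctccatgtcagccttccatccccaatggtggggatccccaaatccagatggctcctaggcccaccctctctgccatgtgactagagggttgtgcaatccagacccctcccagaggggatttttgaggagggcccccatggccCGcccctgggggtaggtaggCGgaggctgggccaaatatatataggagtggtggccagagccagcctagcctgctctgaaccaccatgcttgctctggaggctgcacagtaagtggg
Rag1 (chr2:101649483-101649782): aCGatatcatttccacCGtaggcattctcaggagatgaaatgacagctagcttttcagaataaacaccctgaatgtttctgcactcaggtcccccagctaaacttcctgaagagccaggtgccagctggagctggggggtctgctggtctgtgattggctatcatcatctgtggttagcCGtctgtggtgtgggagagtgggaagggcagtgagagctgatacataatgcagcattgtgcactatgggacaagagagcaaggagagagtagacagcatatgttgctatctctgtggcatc
The Notch1 window held 23 CG dinucleotides, a number reached by 21.5% of all windows. The Spib and Rag1 windows held 2 and 3 CG, against a median of 7 over all windows. Among the other genes, the Tcf3 window (80433586 to 80433885) held 25 CG. It lay inside the gene and did not reach the outer gene start at 80433976, from which distances run. The window at the RefSeq start of Foxo1 held 31 CG, that of Flt3 18, that of Blnk 7 and that of Dntt 2. The E-box CAGGTG, a form of the motif that E proteins bind, was present on either strand in 4 of the 15 windows (2 at Satb1, 1 at Blnk and 1 at Rag1), against 20.2% of all windows.

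The mean level was lower in mutant progenitors in all 41 regions, 40 of which were called lower, and losses ran up to 46.3 percentage points at Ebf1 and 42.6 points at Blnk. Averaged over the 41 regions, mutant replicates had levels of 59.4%, 62.6% and 65.1%, and wild-type replicates had 80.5%, 80.8% and 82.3%. The groups did not overlap, with means of 62.4% ± 2.87 in mutant progenitors and 81.2% ± 0.942 in wild-type progenitors (SD, n = 3 each), a difference of -18.8 percentage points. In bulk DNA, another share of a cell type and another level within its cells cannot be told apart. A two-sided exact permutation of the replicates returned p = 0.1, and 3 replicates against 3 can reach no smaller value. With limma, 40 of the 41 regions were called lower and 0 higher at a Benjamini-Hochberg adjusted p under 0.05 over all candidate regions, where 93.5% of all candidate regions were called lower. A loss of 20 points or more with that call was seen at 15 regions, against 34.4% of all candidate regions. In 40 regions all mutant values were beneath all wild-type values, as they were in 94.3% of all candidate regions. The rule took 15 regions from a list selected for this same contrast, into which 33.1% of all candidate regions fell, and the candidate regions themselves were proposed on these samples, so these counts describe the regions and are no independent evidence of a loss.

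**Figure D1:**
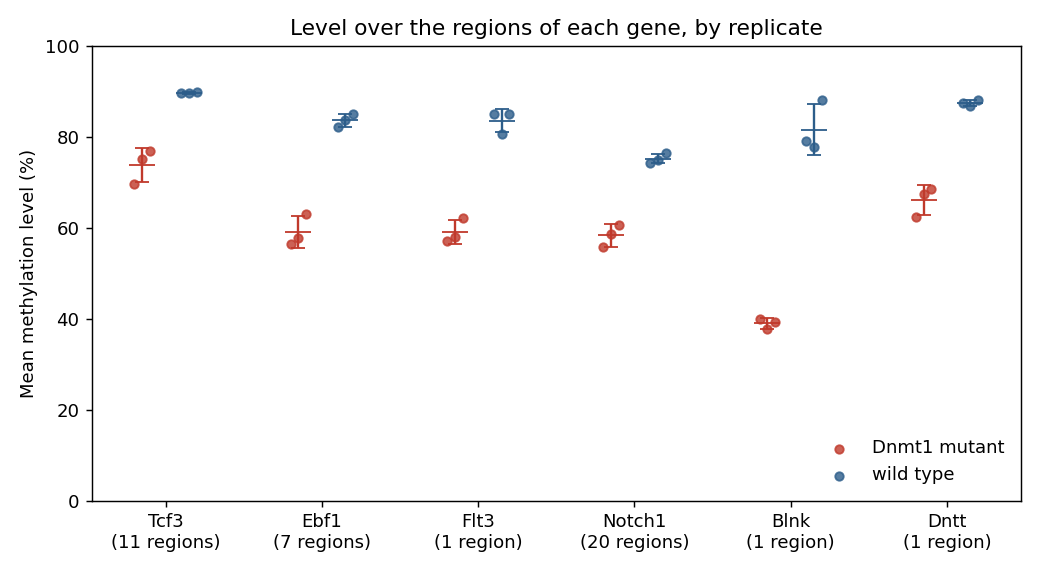
Mean methylation level (percent) over the regions of each of the 6 genes with a region, Dnmt1 mutant left and wild type right; points are the 3 replicates, bars the mean and SD. The mutant lies below the wild type without overlap in each gene, as it does in 94.3% of all candidate regions. Flt3, Blnk and Dntt have 1 region each, taken from a list chosen for this loss. Their separation follows largely from that choice, and genes are not ranked by it. The Blnk region is at 39.0% against 81.6%, whereas all 5 candidate regions at Blnk average 56.0% against 76.3%. Tcf3 is at 73.8% against 89.7%.

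Tcf3 encodes the E protein at the head of the pathway, and its regions inside the gene were highly methylated in both genotypes. The hypomethylated list names Tcf3 in 7 rows, of which 3 lay within the distance used. Over its 11 regions, mutant replicates averaged 69.6%, 75.1% and 76.9%, and wild-type replicates 89.6%, 89.5% and 89.9%. All 3 mutant values were below the wild type, with a mean difference of -15.8 points. The largest loss was 2273 bp upstream of the gene start (chromosome 10, 80436249 to 80436918, mm10; 12 CpGs), where the levels were 22.1%, 22.4% and 28.4% in mutant progenitors and 51.2%, 48.0% and 56.9% in wild-type progenitors. This region was the one least methylated in wild-type progenitors among the 11. Farther upstream, a candidate region outside the chosen ones (80437901 to 80439713) was at 74.1% ± 4.74 in mutant progenitors and 88.2% ± 2.04 in wild-type progenitors (SD, n = 3 each). Across the 10 regions inside the gene, which began 6571 to 23630 bp from its start, the level averaged 78.8% ± 3.94 in mutant progenitors and 93.5% ± 0.259 in wild-type progenitors (SD, n = 3 each). The smallest loss among them was 8.42 points (80415376 to 80415555), with mutant replicates at 87.5%, 90.4% and 85.7% and wild-type replicates at 95.4%, 96.5% and 96.9%. Mutant replicates differed most in the region from 80419241 to 80420187, at 58.2%, 76.9% and 71.1%, where the wild type had 88.1%, 90.9% and 86.1%.

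Ebf1, the factor that specifies the B lineage, had regions that were few and far apart, and it held the largest loss of the 41. Its 7 regions covered 1.31% of the 198096 bp from the first to the last. Averaged over them, the replicates had 56.5%, 57.8% and 63.0% in mutant progenitors and 82.2%, 83.7% and 84.9% in wild-type progenitors, a difference of -24.5 points without overlap. The deepest loss lay 122942 bp inside the gene (chromosome 11, 44741042 to 44741203; 10 CpGs in 162 bp), with levels of 28.0%, 29.7% and 28.0% in mutant progenitors and 82.0%, 69.3% and 73.2% in wild-type progenitors. The 3 mutant replicates were within 2 points of each other there, whereas the wild-type replicates were more scattered. The other listed regions of Ebf1 lost 23.2 to 29.0 points, and they lay at 14069, 68161 and 211479 bp from the gene start. The 3 regions between them that were not listed lost 13.7 to 17.3 points. The smallest of these losses was at 44714453 to 44715050, with 80.1% ± 0.756 in mutant progenitors and 93.8% ± 3.34 in wild-type progenitors (SD, n = 3 each). The list was chosen on this loss, so the contrast of listed with unlisted regions follows largely from that choice.

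**Figure D2:**
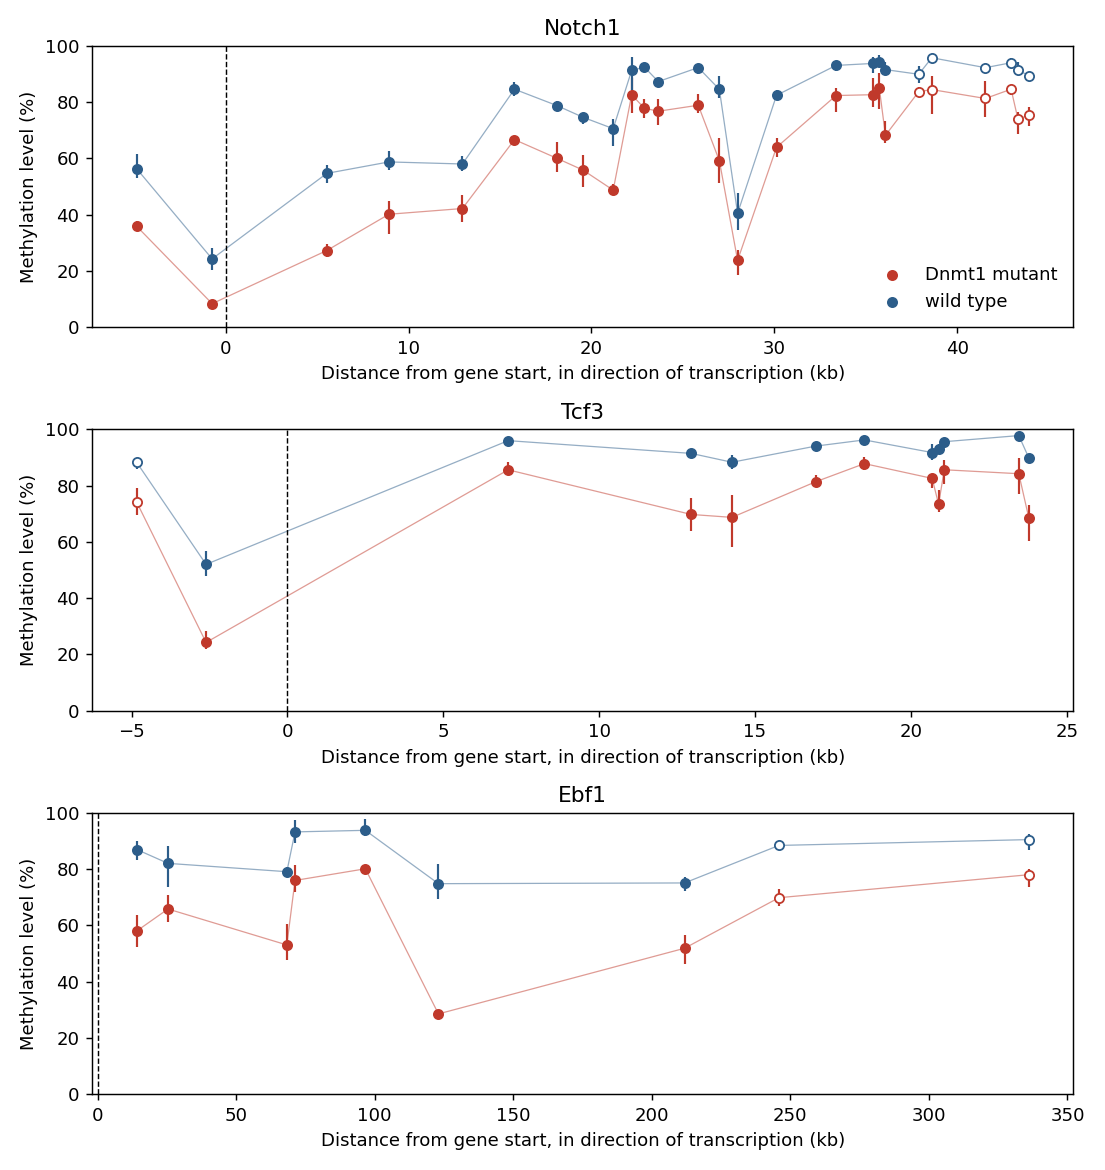
Methylation level (percent) of each candidate region against its distance from the gene start in kb, in the direction of transcription, for Notch1, Tcf3 and Ebf1; points are means and vertical bars the range of 3 replicates, red for the Dnmt1 mutant and blue for the wild type. Filled points are the regions chosen by the rule, open points other candidate regions at the gene, and the dashed line is the gene start. In Notch1 the mutant follows the rise and fall of the wild type at a lower level, and in Ebf1 the mutant drops to 28.6% in 1 region.

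Of the 2 receptor genes, Flt3 had 1 region and Notch1 had 20. The Flt3 region lay 9569 bp inside the gene (chromosome 5, 147389907 to 147390920; 10 CpGs), with levels of 57.0%, 58.0% and 62.1% in mutant progenitors and 85.1%, 80.7% and 85.0% in wild-type progenitors, a loss of 24.6 points. Its groups were well separated, and it was the largest loss among the 7 candidate regions at the gene. The others lost 11.0 to 19.8 points. It was the only listed region of the 7, and every listed region lost 20 points or more. Its separation and its rank therefore follow largely from how it was chosen.

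Notch1 showed a slope in both genotypes, with methylation lowest at the gene start and highest towards the gene's end. Over its 20 regions the mutant replicates averaged 55.7%, 58.6% and 60.7% and the wild-type replicates 74.3%, 74.9% and 76.4%, a difference of -16.9 points without overlap. In the 8 regions upstream or in the first 20 kb, the level was 42.1% ± 2.50 in mutant progenitors and 61.3% ± 1.90 in wild-type progenitors (SD, n = 3 each). In the 12 regions beyond 20 kb it was 69.2% ± 2.69 in mutant progenitors and 84.5% ± 0.521 in wild-type progenitors. The mutant thus kept 68.6% of the wild-type level in the first segment and 81.8% in the second. Across the 20 regions, distance from the gene start and wild-type level had a Pearson correlation of 0.722 and a Spearman correlation of 0.728, given as a description of regions that share 1 locus and the same libraries.

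The region closest to the Notch1 start lay 638 bp upstream of it (chromosome 2, 26504460 to 26504669) and overlaps Gm35978 in RefSeq. It lies upstream of the first base of the promoter window printed above. Levels were 9.33%, 7.11% and 8.67% in mutant progenitors and 20.4%, 28.3% and 24.1% in wild-type progenitors. The mutant was nearly unmethylated, and the level fell by 15.9 points with a limma adjusted p of 0.000410 although the authors' list does not hold this region. The largest loss in the gene was 27.4 points, 5184 bp from the start (26497948 to 26498638; 12 CpGs), with mutant replicates at 29.5%, 27.5% and 24.9% and wild-type replicates at 51.3%, 57.6% and 55.2%. A dip 27326 bp into the gene (26475164 to 26476496) broke the slope in both groups, at 18.6%, 25.4% and 27.3% in mutant progenitors and 47.7%, 34.7% and 39.1% in wild-type progenitors. Its neighbours on either side were at 59.2% and 63.9% in mutant progenitors and 84.6% and 82.5% in wild-type progenitors. One Notch1 region was not called (26481481 to 26481763, limma adjusted p = 0.0638): the replicates overlapped, at 88.8%, 76.1% and 83.0% in mutant progenitors and 84.2%, 93.9% and 95.9% in wild-type progenitors. A further listed region under the name of Notch1 lay 4657 bp upstream of the RefSeq start (26508479 to 26508893), which the authors' deposited table gives a distance of 0, with 35.9% ± 1.78 in mutant progenitors and 56.3% ± 4.68 in wild-type progenitors (SD, n = 3 each).

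Blnk and Dntt, genes of the assembled receptor and of its joining, each had 1 region well inside the gene. At Blnk (chromosome 19, 40962325 to 40962745; 18 CpGs), 31476 bp from the start, the levels were 39.9%, 37.6% and 39.3% in mutant progenitors and 79.0%, 77.8% and 88.0% in wild-type progenitors. The loss of 42.6 points was the second largest of the 41, and the mutant replicates were close together. The other 4 candidate regions at Blnk lost 12.6 to 15.9 points, and over all 5 the mean difference was -20.3 points. Only the region with the loss of 42.6 points was listed, so its larger loss among the 5 follows in part from how it was chosen. The Dntt region (chromosome 19, 41053070 to 41053514, 12 CpGs) was also taken from the list. Its levels were 62.5%, 67.4% and 68.5% in mutant progenitors and 87.5%, 86.8% and 88.2% in wild-type progenitors. The loss was 21.4 points without overlap, a separation that follows largely from how the region was chosen. A listed region beyond the end of Dntt (41063489 to 41064127; 14 CpGs) overlaps Opalin, under which the authors listed it, and had 65.6% ± 5.79 in mutant progenitors and 90.0% ± 0.0888 in wild-type progenitors (SD, n = 3 each).

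Among the 3 genes with several regions, Ebf1 had a mean difference of -24.5 points, Notch1 of -16.9 points and Tcf3 of -15.8 points. The hypomethylated list, which was chosen on this loss, held 4 of the 7 Ebf1 regions, 5 of the 20 Notch1 regions and 3 of the 11 Tcf3 regions. These differences between genes therefore describe the chosen regions, and tests of them carry the same selection. Compared by replicate, the difference of Ebf1 was -8.68 points from that of Tcf3, and that of Notch1 was 7.63 points from that of Ebf1. Each gave an exact permutation p of 0.1, the smallest possible. The difference of Notch1 was -1.05 points from that of Tcf3 (exact permutation p = 0.3).

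How much of the wild-type level the mutant kept varied with the wild-type level itself. Of the 41 regions, 28 had a wild-type level of 80% or more, and there the mutant kept a median of 82.8% of it, against 82.6% over all candidate regions of that class. In the 6 regions between 60% and 80% the median kept was 69.1%, against 65.2%, and in the 6 between 40% and 60% it was 61.2%, against 53.3%. The 1 region under 40%, upstream of Notch1, kept 34.5%, against a median of 42.7% over all candidate regions between 20% and 40%. Across the 41 regions, wild-type level and share kept had a Pearson correlation of 0.785 and a Spearman correlation of 0.850; across all candidate regions the Pearson correlation was 0.123 and the Spearman correlation 0.756. The regions share libraries, and the share kept has the wild-type level in its denominator, so these are descriptions. In 5 of the 41 regions (12.2%) the mutant kept under 50% of the wild-type level, against 10.9% of all candidate regions. These 5 were the upstream regions of Tcf3 and Notch1 already described, the Notch1 region of largest loss, and the single deep losses of Ebf1, at 38.1%, and Blnk, at 47.7%. The Ebf1 and Blnk regions were apart from the rest in starting from wild-type levels of 74.9% and 81.6%.

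**Figure D3:**
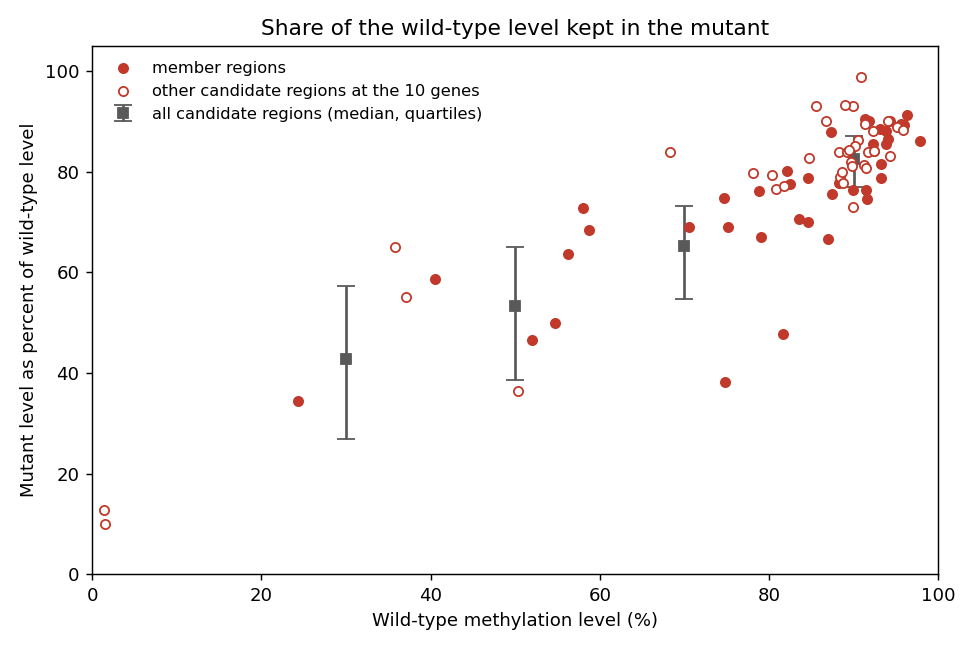
Mutant level as a percent of the wild-type level against the wild-type level (percent) for the candidate regions at the 10 genes; filled points are the 41 chosen regions and open points the other candidate regions. Grey squares and bars are the median and quartiles over all candidate regions in classes of wild-type level from 20% upwards. Most points rise with the wild-type level, and the filled points at 38.1% (Ebf1) and 47.7% (Blnk) lie below the quartiles of their classes. Several other filled points at wild-type levels of 80% or more also lie below the lower quartile of that class, 76.9%.

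Losses ran on across the threshold of the list without a gap. The 2 listed regions with the smallest loss lost 20.4 points (Notch1, 4657 bp upstream) and 21.3 points (Tcf3, 80410041 to 80410346). The 3 unlisted regions with the largest loss lost 19.8 and 19.6 points at Tcf3 and 18.8 points at Notch1. All 15 listed regions held at least 10 CpGs, with 25 at most, and 4 of them had a metilene q-value under 0.05 in the authors' deposited table. The 26 unlisted regions averaged 69.2% ± 2.78 in mutant progenitors and 83.4% ± 0.856 in wild-type progenitors (SD, n = 3 each), a difference of -14.2 points. Mutant replicate 1 was the lowest of the mutant replicates in 27 of the 41 regions (65.9%), against 59.7% of all candidate regions.

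At Foxo1, Satb1, Spib and Rag1 the candidate regions within the RefSeq gene or 5 kb of it ranged from no detectable loss to a clear one. Foxo1, which encodes a forkhead factor that switches on Ebf1 and the Rag genes, had 4 regions, 2 of them called lower, against 93.5% of all candidate regions. At 52296760 to 52297687 on chromosome 3 the levels were 56.6%, 66.0% and 63.1% in mutant progenitors and 79.2%, 81.1% and 82.2% in wild-type progenitors. Another, farther in (52326326 to 52327694), was at 70.9% ± 7.39 in mutant progenitors and 88.7% ± 1.38 in wild-type progenitors (SD, n = 3 each). The last one, 77295 bp from the gene start (52345632 to 52346232), had 85.9%, 91.4% and 92.1% in mutant progenitors and 88.3%, 90.4% and 94.0% in wild-type progenitors, with overlapping replicates and a limma adjusted p of 0.689. A Foxo1 region near the start (52269869 to 52269971) was almost unmethylated, at 0.185% ± 0.321 in mutant progenitors and 1.44% ± 1.79 in wild-type progenitors (SD, n = 3 each).

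Satb1 encodes a chromatin organiser that favours lymphoid priming, and it had 2 regions on chromosome 17. One, near the gene's end (51740133 to 51740365), was lower at 81.7% ± 3.33 in mutant progenitors and 91.4% ± 2.56 in wild-type progenitors (SD, n = 3 each), without overlap and with a limma adjusted p of 0.00577. Its other region, 1174 bp inside the start (51832027 to 51832116), was almost unmethylated in both, at 0.148% ± 0.257 in mutant progenitors and 1.48% ± 2.57 in wild-type progenitors.

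Rag1, the recombinase gene, had 2 regions on chromosome 2 and neither was called, against the same 93.5%. From 101642932 to 101643586 the levels were 77.3%, 83.8% and 87.6% in mutant progenitors and 87.8%, 89.7% and 89.4% in wild-type progenitors (limma adjusted p = 0.0665). From 101643801 to 101644448 they were 78.2%, 79.9% and 80.6% in mutant progenitors and 79.7%, 86.2% and 90.7% in wild-type progenitors (limma adjusted p = 0.0802). The differences were -6.07 and -5.96 points, with limma standard errors of 2.84 and 2.95 points. Every mutant replicate was beneath the wild type in the first of these regions, narrowly, and the replicates of the second overlapped.

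Spib encodes an Ets factor of B cells and plasmacytoid dendritic cells, and all 8 of its candidate regions were called lower, where 93.5% of all candidate regions were. The one just inside the gene start (chromosome 7, 44531059 to 44531815, 272 bp from the start) had 17.4%, 20.4% and 23.4% in mutant progenitors and 32.8%, 44.7% and 34.0% in wild-type progenitors, without overlap. A listed region beyond the gene's end (44524690 to 44525352; 27 CpGs) overlaps Mybpc2, to which the authors assigned it, and had 18.4% ± 1.94 in mutant progenitors and 50.3% ± 0.342 in wild-type progenitors (SD, n = 3 each). The 5 regions upstream overlap Pold1 and cannot be assigned to either gene. The nearest of them, 717 bp from the Spib start (44532804 to 44533065), had the smallest loss of the 8, with 75.8%, 77.7% and 81.0% in mutant progenitors and 84.6%, 85.7% and 89.9% in wild-type progenitors.

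**Figure D4:**
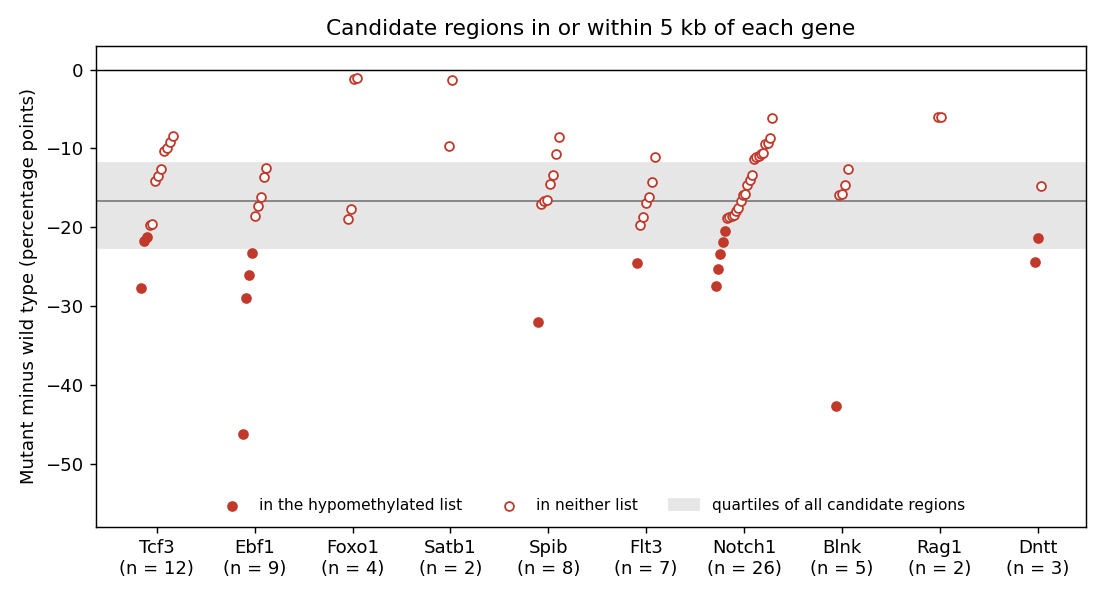
Difference in methylation level, mutant minus wild type in percentage points, of every candidate region in or within 5 kb of the 10 genes; each point is 1 region, filled where it is in the hypomethylated list. The grey band and line are the quartiles and the median over all candidate regions, -22.7, -11.8 and -16.6 points. Every region of Rag1 and Satb1 lies above the band, as does at least 1 region each of Foxo1, Tcf3, Spib, Flt3 and Notch1. A Satb1 and a Foxo1 region had wild-type levels of only 1.48% and 1.44%, which leaves little to lose. The deepest points are 1 region each of Ebf1 and Blnk.

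Set against the whole table, the median difference was -18.5 points over the 41 regions and -16.6 points over all candidate regions. The gap between the mean of the 41 regions and the mean of all candidate regions was 1.81 ± 0.630 points in mutant progenitors and 2.67 ± 0.690 points in wild-type progenitors (SD, n = 3 each). The replicates overlapped, and the exact permutation test of this difference of -0.859 points gave p = 0.2, where 0.1 is the smallest possible. Since 15 of the 41 were chosen for this loss, the comparison is a description, and it moved with the regions taken. Without Notch1 it was -2.71 points, and over the listed regions alone against all candidate regions -8.84 points. It was 0.870 points weighted by length, 1.65 points over all 78 candidate regions at the 10 genes, and 1.54 points between the listed regions and the whole list.

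Regions taken by the same rule at Pax5, the partner of Ebf1, averaged 44.8% ± 1.75 in mutant progenitors and 70.6% ± 0.0315 in wild-type progenitors over 43 regions (SD, n = 3 each). Those at the T cell factor gene Bcl11b averaged 56.0% ± 1.53 in mutant progenitors and 80.5% ± 0.555 in wild-type progenitors over 33 regions. The list held 34 of the 43 Pax5 regions and 21 of the 33 Bcl11b regions, against 15 of the 41 described here. The means therefore hold unequal shares of regions chosen for their loss. The difference over the 41 regions was 6.91 points from that at Pax5 and 5.65 points from that at Bcl11b. Each gave an exact permutation p of 0.1, the smallest possible, and with these unequal shares no order is drawn from it.

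Among 56 other genes of the B lineage programme, its receptor signalling and the Notch and FoxO pathways, 43 had a candidate region and each of these had at least 1 called lower by limma. Of their 493 regions, 461 were called lower and 0 higher, against the 93.5% of all candidate regions called lower, and the median difference was -15.4 points. Genes with 0 candidate regions included Il7r, the interleukin 7 receptor gene, the Rag1 partner Rag2, and the surrogate light chain genes Vpreb1 and Igll1. By number of listed regions, the leading genes were Pou2f2, an octamer factor gene of B cells, with 17 of 34 candidate regions listed, and Dtx1, a regulator and target of Notch, with 13 of 22. Next came Runx1 with 10 of 41, Bach2 with 8 of 36, Runx3 with 8 of 31, and Ikzf3, which encodes Aiolos, with 7 of 11. Over all candidate regions 33.1% were listed, and Runx1, Bach2 and Runx3 lay below that share. The deepest Pou2f2 region differed by -54.6 points (chromosome 7, 25144316 to 25144946), with levels of 18.0% ± 2.25 in mutant progenitors and 72.6% ± 2.53 in wild-type progenitors, and the deepest Dtx1 region differed by -55.3 points (chromosome 5, 120691851 to 120692406), with 21.8% ± 2.45 in mutant progenitors and 77.1% ± 5.76 in wild-type progenitors (SD, n = 3 each). Averaged over all its regions, Dtx1 stood at 24.9% in mutant progenitors and 50.3% in wild-type progenitors, and Pou2f2 at 48.6% in mutant progenitors and 72.0% in wild-type progenitors. Median differences over all candidate regions of a gene were -16.8 points at Runx1, -16.6 points at Bach2, -15.4 points at Runx3 and -23.9 points at Ikzf3. Another 18 genes were markers of mature B cells or of T, granulocyte and monocyte, or erythroid cells, which the marrow fraction could still hold. At these, 56 of 58 candidate regions were called lower, with a median difference of -19.2 points. The part of such cells in the results was not tested.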

How the data were processed

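DNA of lineage-negative marrow progenitors was sequenced in 12 libraries (6 per genotype, 2 kits) as read pairs of 100 bp, per the labels' protocols. A table deposited by the authors gives each methylation level as a fraction, with 107115 candidate regions and 6 columns, and region lists that carry a q-value and a further adjusted p-value, a difference of means (a score) and the count of CpGs. The file names give metilene as the caller of regions, and the submitters' processing notes name mm10 as the build. Not given in the sources used here are the aligner, the methylation caller, and whether 1 column merges libraries of both kits.

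Fractions were multiplied by 100. Using limma 3.58.1 under R 4.3.3, percent levels of all candidate regions were fitted together and p-values adjusted by Benjamini-Hochberg (threshold 0.05); means over regions were compared with exact two-sided permutation tests (scipy 1.17.1). The fit was checked on simulated data. No replicate columns were alike (smallest median absolute difference 2.44 points). The levels used here carry no coverage, so a minimum could not be applied. Gene spans and promoters came from RefSeq (GRCm38.p6); exon and intron positions were not used here. Distances run from the outer RefSeq gene start to the nearest edge of a region, and coordinates are as deposited. Differences are mutant minus wild type.

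The genes, the list of 56 genes and the tests were chosen with earlier results of these data known. For each gene, over its chosen regions or, where it has none, its candidate regions, the regions of largest and smallest loss and any within 1 kb of the start are given, and of the 56 genes the 6 with the most listed regions; the Notch1 dip and the most variable Tcf3 region were named after their values were seen.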

Additional observations from a re-analysis of the deposited data

How the results depend on the processing

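Of 132 recomputed values, 123 kept their direction and their side of the threshold, or stayed within 1.5 times for a count. Part of this was fixed in advance. For mean differences the permutation p cannot fall under 0.05, so only the direction could change. Flt3, Blnk and Dntt have 1 region each, so length weighting and the region filters returned the same value. The count of 40 of 41 regions called lower was 41 on a logit scale and with a trended, robust variance. It was 39 to 41 without 1 replicate. A loss of 20 points or more was met by 15. Keeping only listed regions, or those with at least 10 CpGs, also gave 15. That is fixed by construction, because CpG numbers are given for listed regions only and all of these were called. All candidate regions at the 10 genes, a setting chosen after seeing the data, gave 72 of 78 (92.3%). Over all candidate regions 93.5% were called lower. The Notch1 region that was not called passed in 4 of 9 fits (adjusted p 0.0204 to 0.222), and the Notch1 region from 26467901 to 26468259 lost its call in 3 of 9 (0.00422 to 0.0846). For the 56 genes the count of 461 of 493 was 432 to 458 without 1 replicate. With a loss of 20 points it was 139 of 493, a share below the 34.4% of all candidate regions. For regions with at least 10 CpGs it was 135 of 135, fixed in the same way. The mean difference of -18.8 points ranged from -20.2 to -17.4 without 1 replicate. The comparison with all candidate regions (-0.859 points) ranged from -1.12 to -0.464 without 1 replicate and reversed to 0.870 weighted by length, 1.65 over all regions at the 10 genes and 1.54 within the list; the cause was not tested. Without Notch1 it was -2.71 points (exact permutation p = 0.1, the smallest possible). Regions chosen for their loss then made up 10 of 21, against 15 of 41, so this value is a description too.

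Deviations of same-numbered replicates were only weakly correlated (0.0372, 0.00489 and 0.050), although 5 of 6 columns correlated best with their own number. Whether equal numbers mark a pair is therefore unknown. With the replicate block, 40 of 41 regions and 455 of 493 were called lower, and the paired sign-flip test of the mean difference (-18.8 points) gave an exact p of 0.25, the smallest that 3 pairs allow. The unknown coverage and 3 replicates per genotype limit all of these values.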
